A study of Homo sapiens with 12 samples.

Results

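The transcripts described here are 10 immediate early transcription factor and response genes, namely *FOS*, *FOSL1*, *JUN*, *JUNB*, *JUND*, *EGR1*, *EGR2*, *EGR3*, *IER2* and *IER3*. They were taken by name from a table of 26485 gene symbols, with earlier results of these data known. All 10 were among the 17176 genes that passed the filter on low counts. HEK293 cells, an established human line from embryonic kidney with a wild-type genotype in the labels, were transfected with 1 μg of plasmid and harvested 48 hr later. PEG10 is a domesticated retrotransposon whose transcript is read as gag or, after a ribosomal frameshift, as gag-pol. The 4 constructs were full-length PEG10 gag-pol, PEG10 gag (the first reading frame alone), the PEG10 nucleocapsid fragment (NC) and, as control, LifeAct-Dendra2, an actin-binding peptide joined to a fluorescent protein. Each was expressed from a plasmid with a CMV promoter, and each was sequenced in 3 libraries, numbered 1 to 3, for 12 libraries in all. The study describes its RNA-seq replicates as biological, and in its methods the pathway analysis has a control named pCDNA. The expression was transient and each library pools transfected and untransfected cells, so fewer responding cells and less RNA per cell cannot be told apart.

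Immediate early genes are transcribed within minutes of a stimulus such as serum, a growth factor or stress, without new protein synthesis, and their transcripts are short-lived. Many of them are switched on through serum response factor (SRF) and its ternary complex partners, which bind CArG boxes in their promoters and are activated by MAP kinases. FOS and JUN proteins pair through leucine zippers to form AP-1, which binds TGANTCA, while EGR proteins are zinc finger factors that bind GC-rich DNA (GCGNGGGCG). In cultured cells their levels are known to respond to medium change, density and handling.

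Promoter sequence from RefSeq (GRCh38.p14) was matched by symbol for 7 of the 10 genes, all but *FOSL1*, *EGR3* and *IER3*. The 250 bases before the start are shown for the EGR genes and for the JUN genes, since these are the families in which members with shared and with differing patterns stand side by side. They are written 5′ to 3′ on the strand of the gene in lower case, with capitals for matches on either strand to the CArG box, to TGACNTCA, a palindromic element known for cyclic AMP response factors and JUN, and to TGACG, which overlaps it in part. The AP-1 letters TGANTCA were searched as well.
EGR1, chr5:138465229-138465478, forward strand: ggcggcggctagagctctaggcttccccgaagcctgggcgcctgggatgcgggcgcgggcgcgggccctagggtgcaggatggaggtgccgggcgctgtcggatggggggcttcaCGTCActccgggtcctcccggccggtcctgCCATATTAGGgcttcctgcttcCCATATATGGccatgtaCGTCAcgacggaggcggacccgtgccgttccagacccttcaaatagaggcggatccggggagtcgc
EGR2, the most downstream of its 3 starts, chr10:62816367-62816616, reverse strand: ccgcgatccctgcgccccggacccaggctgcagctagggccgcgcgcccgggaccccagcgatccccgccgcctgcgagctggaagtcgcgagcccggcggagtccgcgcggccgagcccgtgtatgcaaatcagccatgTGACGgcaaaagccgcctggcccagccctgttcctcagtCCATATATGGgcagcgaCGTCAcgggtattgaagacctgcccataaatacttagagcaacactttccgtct
JUN, chr1:58784048-58784297, reverse strand: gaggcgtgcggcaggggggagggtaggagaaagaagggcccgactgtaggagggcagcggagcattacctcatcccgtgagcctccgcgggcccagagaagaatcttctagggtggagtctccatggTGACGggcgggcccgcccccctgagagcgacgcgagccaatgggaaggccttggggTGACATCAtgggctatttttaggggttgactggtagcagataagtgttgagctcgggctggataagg
JUNB, chr19:12791236-12791485, forward strand: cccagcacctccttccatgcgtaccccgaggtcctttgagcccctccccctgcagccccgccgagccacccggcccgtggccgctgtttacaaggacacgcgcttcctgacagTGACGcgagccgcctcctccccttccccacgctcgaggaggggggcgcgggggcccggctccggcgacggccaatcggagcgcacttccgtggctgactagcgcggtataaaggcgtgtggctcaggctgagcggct
JUND, chr19:18281623-18281872, reverse strand: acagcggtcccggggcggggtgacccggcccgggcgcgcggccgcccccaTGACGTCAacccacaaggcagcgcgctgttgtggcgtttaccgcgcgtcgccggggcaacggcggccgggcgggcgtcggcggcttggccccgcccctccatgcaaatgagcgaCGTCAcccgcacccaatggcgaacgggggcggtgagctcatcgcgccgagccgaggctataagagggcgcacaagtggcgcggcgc

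In these windows *EGR1* held 2 CArG boxes, which began 105 and 83 bases before the start, and the shown *EGR2* window held 1, which began 71 bases before it. The windows of the other *EGR2* starts, not shown, held no match to any motif searched. Of 35116 windows of the same length over all promoters in the table, 1.16% held a CArG box. *JUN* held TGACATCA, beginning 67 bases before the start, and *JUND* held TGACGTCA, beginning 200 bases before it, where 6.87% of all windows held TGACNTCA. TGACG, found in 21.2% of all windows, was in the windows of *FOS*, *JUN*, *JUNB*, *JUND*, *EGR1*, *EGR2* and *IER2*. TGANTCA, found in 6.57% of all windows, was in none of the member windows, and GCGNGGGCG, found in 8.41%, was in that of *EGR1*. These matches describe letters in short windows, and binding was not measured here. Sequence further upstream was not searched, so a window without a CArG box, such as that of *FOS*, does not show that the gene lacks one.

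The libraries held 30625725 to 45316749 counts on genes. *PEG10*, counted as the sum of the endogenous and transfected transcripts, was at 7817 to 14243 counts in control libraries. NC libraries held 98420 to 132613 of its counts, gag libraries 1437939 to 2370308 and gag-pol libraries 1267102 to 2815833. These counts set control, NC and the pair of gag and gag-pol apart in every library. The gag and gag-pol ranges overlapped (log2 fold change of gag-pol against gag -0.25), so the count of the whole gene does not check which of these labels a library carries. *PAX2*, *LHX1*, *EYA1*, *VIM*, *NEFL* and *NEFM*, known in HEK293 cells, were detected in all 12 libraries, whereas *PTPRC*, a leukocyte gene, and *KRT5*, a basal epithelial gene, did not exceed 6 counts. *PECAM1* of endothelium was at 1 to 30 counts and *ALB* of hepatocytes at 6 to 50 counts. *MYH6*, a heart muscle myosin, was at 1 to 14 counts in 11 libraries and at 4864 counts in gag replicate 2, where *MYH7* was at 743 counts against 0 to 12 elsewhere. Calls of the tests with gag are therefore also given without gag replicate 2.

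All 10 transcripts were present in every library, with the lowest count 113, for *EGR2*. Per kilobase of exon, *JUN* was the most abundant at a mean of 260.5 CPM per kb over the 12 libraries, followed by *JUND* at 197, *JUNB* at 68.7, *IER2* at 50.7, *IER3* at 29.7 and *EGR1* at 22.1. *FOSL1* at 5.66, *FOS* at 2.67, *EGR3* at 2.17 and *EGR2* at 1.17 CPM per kb were the low members. The JUN genes thus exceeded the FOS genes on this scale in these cells 48 hr after transfection. The ratio of the highest to the lowest library was 13.1 for *EGR1*, 5.48 for *IER3*, 4.33 for *FOS* and 3.61 for *JUNB*, and it was at most 2.37 for the other 6 genes.

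**Figure D1:**
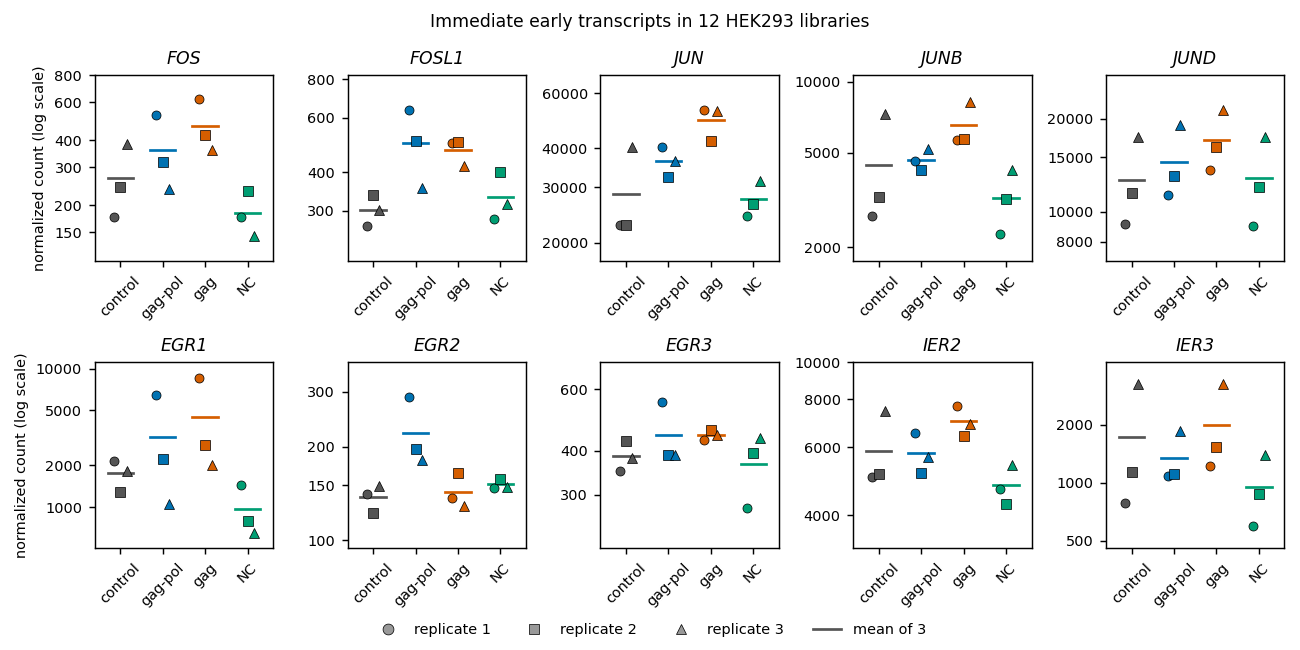
Normalized counts (counts scaled to the mean library size, log axis) of the 10 transcripts in 12 libraries, by construct on the horizontal axis, with symbols for replicate numbers 1 to 3 and bars for the mean of 3. The gag mean is the highest for 7 genes and the NC mean the lowest for 7, and control replicate 3 stands above the other control libraries for *JUN*, *JUNB*, *JUND*, *FOS*, *IER2*, *IER3* and, by little, *EGR2*.

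The JUN genes encode the AP-1 subunits that can pair with one another and with FOS proteins. *JUN* (chromosome 1, 58776845 to 58784048) encodes the subunit most often taken as the activating form. Its normalized count in replicates 1, 2 and 3 was 22802, 22732 and 40357 in control, 40261, 32503 and 36496 with gag-pol, 52889, 42316 and 52706 with gag, and 24349, 26658 and 31573 with NC. All gag libraries were above all others, and control replicate 3 was level with the highest gag-pol library. Against control, *JUN* rose with gag by 0.82 on the log2 scale (standard error 0.15, adjusted p = 0.0266 Benjamini-Hochberg adjusted over all genes, from the quasi-likelihood test of edgeR), from a mean of 28630.3 ± 10156 to 49304 ± 6052 (SD, n = 3). With gag-pol its log2 fold change was 0.39 (standard error 0.15, edgeR adjusted p = 0.121), and with NC it was -0.03 (standard error 0.15, edgeR adjusted p = 0.936). The call with gag was lost without control replicate 1 or 2 or any of the gag libraries, at a log2 fold change of 0.66 to 0.90 and an edgeR adjusted p of 0.0601 to 0.170, and it was lost when no filter on low counts was used (0.0694).

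*JUND* (chromosome 19, 18279694 to 18281622) is the JUN gene known for steady expression in resting cells. Its normalized count in replicates 1, 2 and 3 was 9125, 11474 and 17479 in control, 11329, 13074 and 19120.04 with gag-pol, 13642, 16266 and 21392 with gag, and 9019.5, 12066 and 17453 with NC. The ranges of the 4 constructs overlapped, since number 1 was the lowest and number 3 the highest library of each, but within every number the order was gag, then gag-pol, then control and NC close together. With the replicate number in the model, *JUND* rose with gag by 0.46 against control (log2, standard error 0.08, edgeR adjusted p = 0.00254). With gag-pol its log2 fold change was 0.21 (standard error 0.08, edgeR adjusted p = 0.0754, and 0.0407 in DESeq2, which called it), and by 0.02 with NC (standard error 0.08, edgeR adjusted p = 0.909). Without control replicate 1 or gag replicate 1 the rise with gag was 0.42 or 0.41 and missed the threshold (edgeR adjusted p = 0.0550 and 0.0833), and without gag replicate 2 it was 0.44 (edgeR adjusted p = 0.0271).

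*JUNB* (chromosome 19, 12791486 to 12793315) encodes an AP-1 subunit known to oppose JUN at some targets. It was counted at 2718, 3276 and 7328 normalized counts in control replicates 1, 2 and 3, at 4605, 4248 and 5184 with gag-pol, at 5671, 5736 and 8231 with gag, and at 2279, 3199.6 and 4238 with NC. Control replicate 3 was above every gag-pol and NC library, and the other control libraries were below every gag-pol and gag library. No comparison with control passed the test, with log2 fold changes of 0.20 for gag-pol, 0.65 for gag and -0.38 for NC (standard error 0.23 each, edgeR adjusted p = 0.640, 0.276 and 0.333). With gag *JUNB* stayed uncalled in 9 of 10 alternatives of processing and gained a call in the other. *JUNB* overlaps *HOOK2* on the opposite strand and the strand setting of the counting is not given in the sources used here, so its counts are uncertain to that extent.

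The FOS genes encode subunits that bind DNA as partners of JUN proteins. *FOS* (chromosome 14, 75278826 to 75282230), the classic serum-response gene, was at 175, 243 and 386 normalized counts in control replicates 1, 2 and 3, at 526, 316 and 236 with gag-pol, at 620.2, 421 and 359 with gag, and at 175, 233 and 143 with NC. Every NC library was below every gag-pol and gag library, and control spanned the gap between them. The log2 fold change against control was 0.74 with gag, 0.35 with gag-pol and -0.57 with NC, with standard errors of 0.39 to 0.41, and none passed the test (edgeR adjusted p = 0.473, 0.626 and 0.418).

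*FOSL1* (chromosome 11, 65892049 to 65900573) encodes FRA-1, a FOS relative that is induced later and lasts longer. Its normalized count in replicates 1, 2 and 3 was 269, 339 and 302 in control, 637, 503 and 355 with gag-pol, 496, 499.8 and 418 with gag, and 282, 399.95 and 316 with NC. Every gag-pol and gag library was above every control library, while the control and NC ranges overlapped. *FOSL1* rose with gag-pol by 0.70 against control (log2, standard error 0.17, edgeR adjusted p = 0.00905), from 303 ± 35.1 to 498 ± 141 (SD, n = 3). With gag the log2 fold change was 0.63 (standard error 0.17) at an edgeR adjusted p of 0.0689, and it was called with DESeq2, with no filter and with only the 6 libraries compared (lowest adjusted p = 0.00905). The difference between gag-pol and gag was 0.07 on the log2 scale (95% interval -0.27 to 0.41). The difference of gag-pol from control missed the threshold without control replicate 1 (log2 fold change 0.58, edgeR adjusted p = 0.0579) and without gag-pol replicate 1 (0.44, edgeR adjusted p = 0.124).

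The EGR genes encode zinc finger factors of one family. *EGR1* (chromosome 5, 138465479 to 138469303) was at 2164, 1279.5 and 1812 normalized counts in control replicates 1, 2 and 3, at 6426, 2213 and 1059 with gag-pol, at 8603, 2799 and 2001 with gag, and at 1446, 798 and 656 with NC. The gag-pol and gag libraries of number 1 were far above all others, and NC was the lowest construct within every number. In the comparisons with control the log2 fold change was 0.53 for gag-pol, 1.03 for gag and -0.99 for NC, with standard errors of 0.43 to 0.44, and none passed the test (edgeR adjusted p = 0.503, 0.373 and 0.216). With NC *EGR1* stayed uncalled in 8 of 10 alternatives of processing and gained a call in the others.

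*EGR2* (chromosome 10, 62811996 to 62819167), known for its role in myelinating Schwann cells and in the hindbrain, was at 141, 122 and 149 normalized counts in control replicates 1, 2 and 3, at 288, 196 and 181 with gag-pol, at 137, 165 and 129 with gag, and at 148, 157 and 149 with NC. All gag-pol libraries were above all 9 others. *EGR2* rose with gag-pol by 0.67 against control (log2, standard error 0.20, edgeR adjusted p = 0.0350), from 138 ± 13.8 to 222 ± 58.1 (SD, n = 3). Its log2 fold change against control was 0.06 with gag (95% interval -0.37 to 0.49) and 0.14 with NC (95% interval -0.29 to 0.56). The call with gag-pol was lost without control replicate 1 (log2 fold change 0.64, edgeR adjusted p = 0.103), without control replicate 2 (0.58, edgeR adjusted p = 0.137) and without gag-pol replicate 1 (0.44, edgeR adjusted p = 0.272), and with only the 6 libraries compared (edgeR adjusted p = 0.0687).

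*EGR3* (chromosome 8, 22687659 to 22693480), a family member known as a target of EGR1, was at 351, 427 and 383 normalized counts in control replicates 1, 2 and 3, at 553, 390.2 and 390.3 with gag-pol, at 429, 458 and 445 with gag, and at 274, 393 and 436 with NC. The gag libraries lay just above the control range and the other constructs overlapped it. No comparison between constructs passed the test for *EGR3*, whose log2 fold changes against control were 0.21, 0.20 and -0.08 for gag-pol, gag and NC (standard error 0.17 each, edgeR adjusted p = 0.468, 0.667 and 0.818).

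*IER2* and *IER3* are immediate early genes outside AP-1 and EGR, the first a nuclear protein and the second a stress-response protein linked to survival signaling. *IER2* (chromosome 19, 13150411 to 13154911) was at 5032, 5117 and 7446 normalized counts in control replicates 1, 2 and 3, at 6555, 5154 and 5684 with gag-pol, at 7701, 6428 and 6915 with gag, and at 4684, 4269 and 5401 with NC. Every NC library was below every gag library, and NC was the lowest construct within every number. Its log2 fold change against control was 0.27 with gag, -0.01 with gag-pol and -0.29 with NC (standard error 0.11 each), and none passed the test (edgeR adjusted p = 0.271, 0.979 and 0.0956). With NC *IER2* stayed uncalled in 8 of 10 alternatives of processing and gained a call in the others.

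*IER3* (chromosome 6, 30743199 to 30744548) was at 786, 1139 and 3253 normalized counts in control replicates 1, 2 and 3, at 1084, 1114 and 1851 with gag-pol, at 1216, 1523 and 3239 with gag, and at 594, 869.7 and 1386 with NC. The library of number 3 was the highest of its construct in all 4 constructs, and NC was the lowest construct within every number. With the replicate number in the model, *IER3* fell with NC by 0.71 against control on the log2 scale (standard error 0.20), at an edgeR adjusted p of 0.0499 that lies just under the threshold. The call was lost when control replicate 2 or 3, gag-pol replicate 2 or any gag or NC library was left out, and without control replicate 3 the log2 fold change was -0.41 (edgeR adjusted p = 0.0927). It was also lost with RLE factors and with no filter on low counts.

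**Figure D2:**
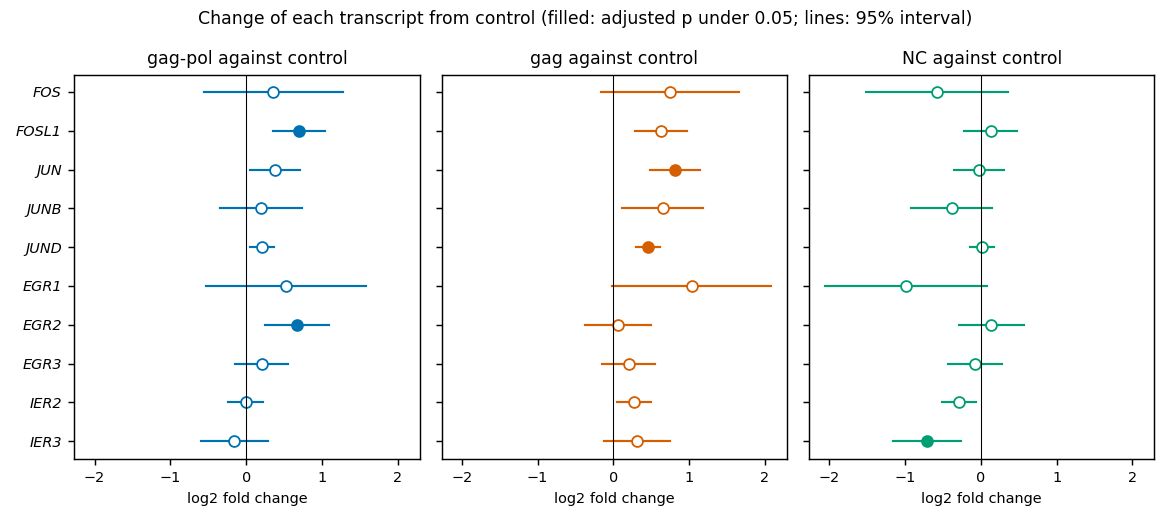
Log2 fold change of each transcript against control with gag-pol, gag and NC from the model of all 12 libraries, where lines are 95% intervals and filled points passed an adjusted p of 0.05. With gag all 10 points lie above 0 and *JUN* and *JUND* are filled, with gag-pol *FOSL1* and *EGR2* are filled, and with NC *IER3* alone is filled.

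The calls given here hold with the replicate number in the model, and with no replicate block 0 of the 10 genes passed in any comparison of constructs in edgeR. Counted over the list, gag-pol raised 2 of the 10 genes against control (*FOSL1* and *EGR2*) and lowered 0. Over all genes tested, 11.3% were called in this comparison in either direction and 5.48% were called higher. The members' median log2 fold change was 0.28 beside -0.00 for all genes. In the same 2 members all gag-pol libraries lay above all control libraries, as they did for 6.74% of all genes. Without control replicate 3 the members called came to 5, while 4.22% of all genes were called. Without control replicate 2 the members called came to 1, beside 7.86% of all genes. Without control replicate 1 or gag-pol replicate 1 they came to 0, beside 8.23% and 5.13%.

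Gag raised 2 of the 10 genes against control (*JUN* and *JUND*), where 1.08% of all genes were called in either direction and 0.699% were called higher. All 10 log2 fold changes were positive, with a median of 0.54 beside 0.00 for all genes, and all 3 gag libraries lay above all control libraries for *FOSL1*, *JUN* and *EGR3* (3 of 10), which was so for 4.2% of all genes. The count of members called was 7 without control replicate 3, where 2.44% of all genes were called. It was 0 without control replicate 1 or gag replicate 1, beside 0.2% and 0.188% of all genes. It was 3 without NC replicate 2 or either gag-pol replicate 1 or 3, beside 1.57%, 1.05% and 1.6%. It was 1 without control replicate 2, gag replicate 2 or gag replicate 3, beside 0.337%, 0.525% and 1.07%. Within replicate number 3 the gag to control log2 ratio was -0.10 for *FOS*, -0.11 for *IER2* and -0.01 for *IER3*, where it was 1.82, 0.61 and 0.63 within number 1. For *EGR2* it was -0.22 within number 3 and -0.05 within number 1.

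NC lowered 1 of the 10 genes against control (*IER3*), where 11.2% of all genes were called in either direction and 5.15% were called lower. Of the 10 log2 fold changes 7 were negative, with a median of -0.18 beside 0.00 for all genes. For no member did all NC libraries lie above or below all control libraries. Of all genes, 4.56% had all NC libraries above and 4.94% had all below. Members called came to 3 without control replicate 1, beside 9.89% of all genes. They came to 0 without the libraries named for *IER3*, beside 2.1% to 10.5% of all genes.

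**Figure D3:**
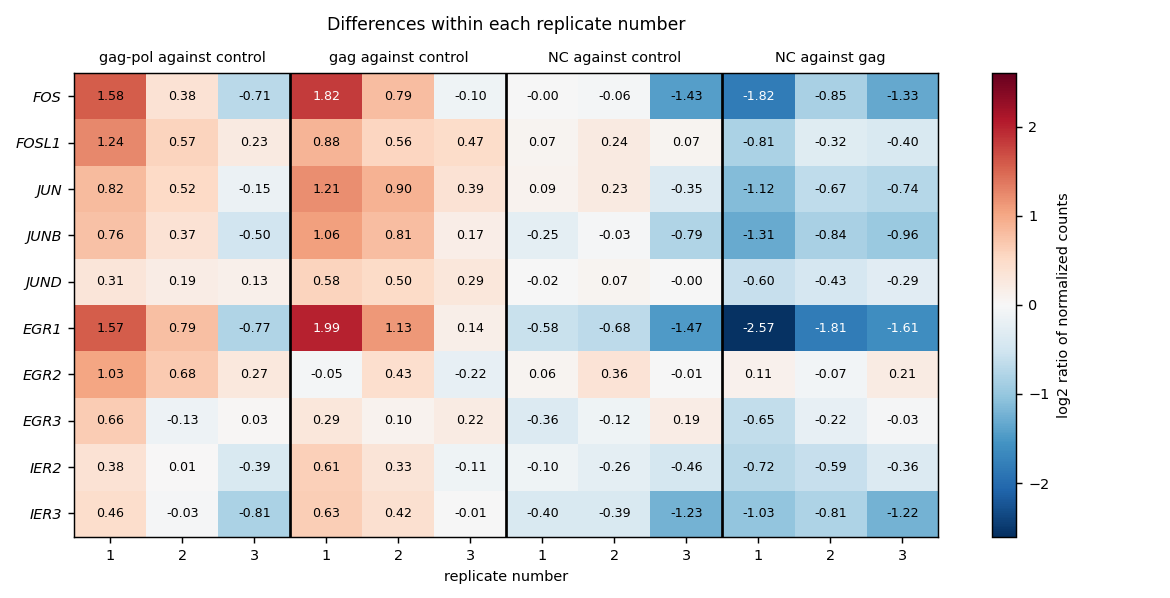
Log2 ratio of normalized counts between the libraries of one replicate number (columns 1 to 3 in each block) for the 10 transcripts, in red where the first construct is higher and in blue where it is lower. The ratios of NC to gag are negative in all 3 columns for 9 genes, the exception being *EGR2*, and the ratios of gag-pol and gag to control are lower in number 3 than in number 1 for all 10.

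The transcripts differed most between NC and gag. With NC, 7 of the 10 were lower than with gag (*FOSL1*, *JUN*, *JUNB*, *JUND*, *EGR1*, *IER2* and *IER3*) and 0 were higher, while 16.9% of all genes were called in either direction and 8.12% were called lower. The median log2 fold change of the members was -0.70 beside -0.01 for all genes. *EGR1* fell by 2.02 on the log2 scale (standard error 0.44, edgeR adjusted p = 0.0287), from a mean of 4468 ± 3603 with gag to 966 ± 421 with NC (SD, n = 3). *JUNB* fell by 1.03 (standard error 0.23, edgeR adjusted p = 0.0241) and *IER3* by 1.02 (standard error 0.20, edgeR adjusted p = 0.00879). *JUN* fell by 0.84 (standard error 0.15, edgeR adjusted p = 0.00409), *IER2* by 0.56 (standard error 0.11, edgeR adjusted p = 0.00317), *FOSL1* by 0.50 (standard error 0.17, edgeR adjusted p = 0.0408) and *JUND* by 0.44 (standard error 0.08, edgeR adjusted p = 0.00095).

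*FOS*, with a log2 fold change of -1.32 between NC and gag (standard error 0.40), missed the threshold at an edgeR adjusted p of 0.0599 although its libraries did not overlap. It was called with DESeq2, with at least 10 counts in every library, with no robust estimation, with thinned counts and with only the 6 libraries compared, at a lowest adjusted p of 0.00092. *EGR3* was at -0.28 (95% interval -0.63 to 0.08) and *EGR2* at 0.08 (95% interval -0.35 to 0.50). In 6 members (*FOS*, *FOSL1*, *JUN*, *JUNB*, *EGR1* and *IER2*) every NC library lay below every gag library, as in 7.31% of all genes. The count of members called was 8 without control replicate 1, control replicate 3 or gag-pol replicate 1, beside 15.9%, 20.4% and 15.3% of all genes. It was 3 without gag replicate 1, where the share of all genes called fell to 5.36%. It was 4 without gag replicate 2, gag replicate 3, NC replicate 1 or NC replicate 3, beside 9.45%, 11.4%, 7.71% and 12.9%. The calls lost without gag replicate 2 were those of *FOSL1*, *JUNB* and *EGR1*, at log2 fold changes of -0.53, -1.04 and -2.07 (edgeR adjusted p = 0.0927, 0.0717 and 0.0806). *JUN*, *JUND* and *IER2* passed in all 12 fits that left out 1 library, *IER3* in 11, *JUNB* in 7 and *EGR1* and *FOSL1* in 6, with log2 fold changes of -2.19 to -1.79 for *EGR1* and of -0.60 to -0.34 for *FOSL1*. *PEG10* itself was at a log2 fold change of -4.10 between NC and gag, its standard error being 0.43. The NC insert is a short part of gag and counts were not scaled by insert length. This value therefore does not measure the difference in transcript number alone. The part of transcript dose in the differences of the 10 genes was not tested. This comparison shares its gag libraries with that of gag and control.

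**Figure D4:**
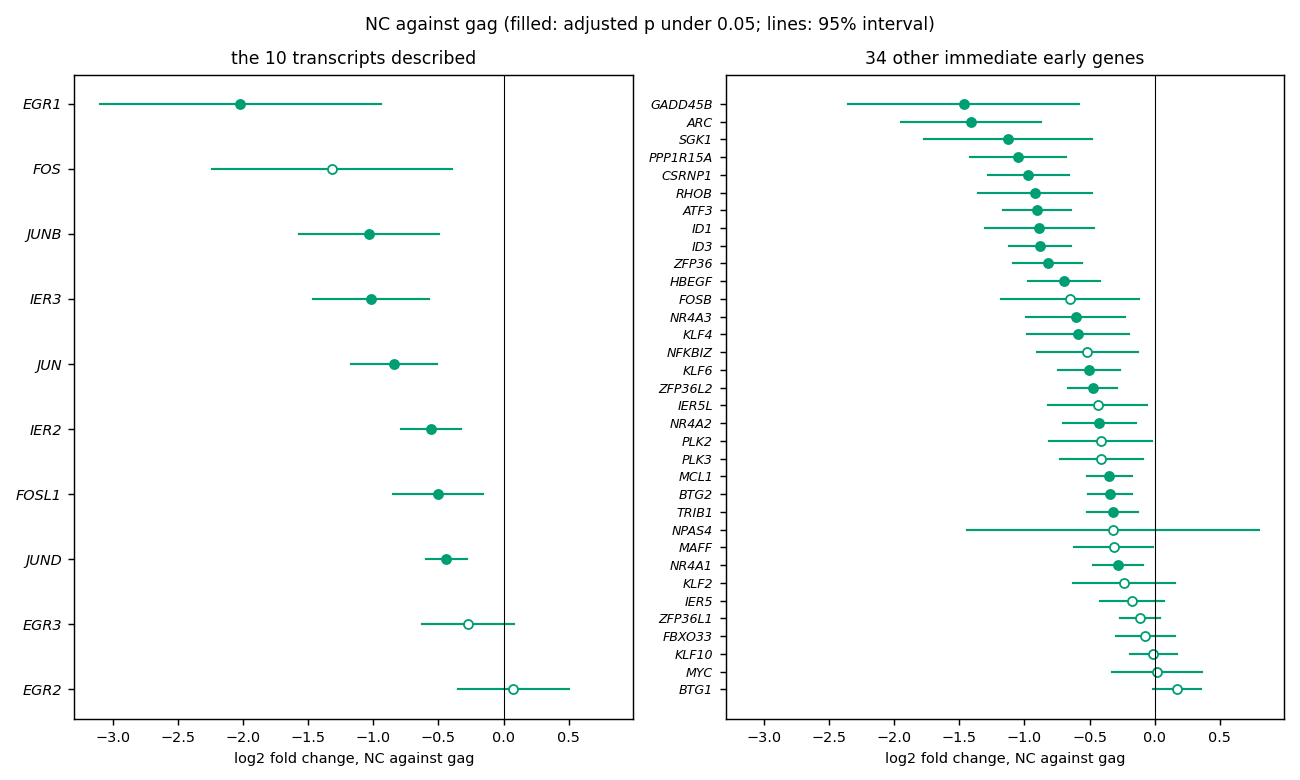
Log2 fold change of NC against gag for the 10 transcripts (left) and for 34 other immediate early genes (right), where lines are 95% intervals and filled points passed an adjusted p of 0.05. On the left 7 points are filled and all of these are below 0, with *EGR1* lowest at -2.02, and on the right 20 are filled and all of these are below 0.

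Between gag-pol and gag, 0 of the 10 genes passed edgeR's adjusted threshold, where 6.46% of all genes were called, and 5 were at an unadjusted p under 0.05. DESeq2 called 1 member in this comparison, and edgeR fitted to only the 6 libraries compared called 8, beside 15.9% of the 16517 genes it tested. The members' median log2 fold change was -0.33 beside -0.01 for all genes. *JUN* and *JUNB* were lower in every gag-pol library than in every gag library (2 of 10, beside 6.06% of all genes), and *EGR2* was higher in every gag-pol library (1 of 10, beside 6.64% of all genes). The log2 fold change of *JUN* was -0.43 (edgeR adjusted p = 0.110) and that of *EGR2* was 0.61 (edgeR adjusted p = 0.0717). Without control replicate 3, which is in neither group but enters the shared estimate of spread, 6 members were called beside 10.6% of all genes. Without control replicate 1, gag replicate 3, gag-pol replicate 1 or NC replicate 2, 1 member was called, beside 6.45%, 3.03%, 3.22% and 8.57%.

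Between NC and gag-pol, edgeR called 0 members and 0.0873% of all genes, and DESeq2 called 1 member. All 10 log2 fold changes were negative, with a median of -0.54 beside 0.02 for all genes, and 9 were at an unadjusted p under 0.05. Every NC library lay below every gag-pol library for *FOS*, *JUN*, *JUNB* and *EGR2* (4 of 10, beside 4.13% of all genes). *EGR1* had the largest difference of the 10, at a log2 fold change of -1.51 (standard error 0.44, edgeR adjusted p = 0.346). Without control replicate 3 the count of members called was 3 beside 0.361% of all genes, and without gag-pol replicate 3 it was 1 beside 1.6%.

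In an F test among the 4 constructs, 6 members passed (*FOSL1*, *JUN*, *JUND*, *EGR2*, *IER2* and *IER3*), where 20.6% of all genes did. Among the 3 replicate numbers, 5 passed (*JUNB*, *JUND*, *EGR1*, *IER2* and *IER3*), where 52.8% of all genes did. The direction of the replicate effect was not shared by the members. In number 3, *IER3* was higher than in number 1 by 1.37 on the log2 scale (standard error 0.17, edgeR adjusted p = 0.00016), *JUND* by 0.82 (standard error 0.07, edgeR adjusted p = 7.22e-09) and *JUNB* by 0.76 (standard error 0.20, edgeR adjusted p = 0.0188). *EGR1* was lower in number 3 than in number 1 (log2 fold change -1.53, standard error 0.39, edgeR adjusted p = 0.0200). Of the sum of squares of log2 CPM over the 12 libraries, replicate number took 75.6% for *JUND* and 65.4% for *IER3*, and construct took 69.1% for *JUN*, 68.7% for *EGR2*, 65.0% for *FOSL1* and 60.5% for *FOS*. The count among constructs was 9 without control replicate 3 and 3 without gag replicate 1. Without gag replicate 2 it was 5 beside 14.8% of all genes, *IER3* being the call lost (edgeR adjusted p = 0.0661). Among replicate numbers the count was 2 without gag replicate 2, beside 45.5% of all genes. It was also 2 without NC replicate 1 or gag-pol replicate 2, and 3 without NC replicate 3, control replicate 2 or gag replicate 3. Over all fits that left out a library or replicate number, the genes called in the whole table ranged from 636 to 3590 among constructs. Among replicate numbers they ranged from 3674 to 9371.

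**Figure D5:**
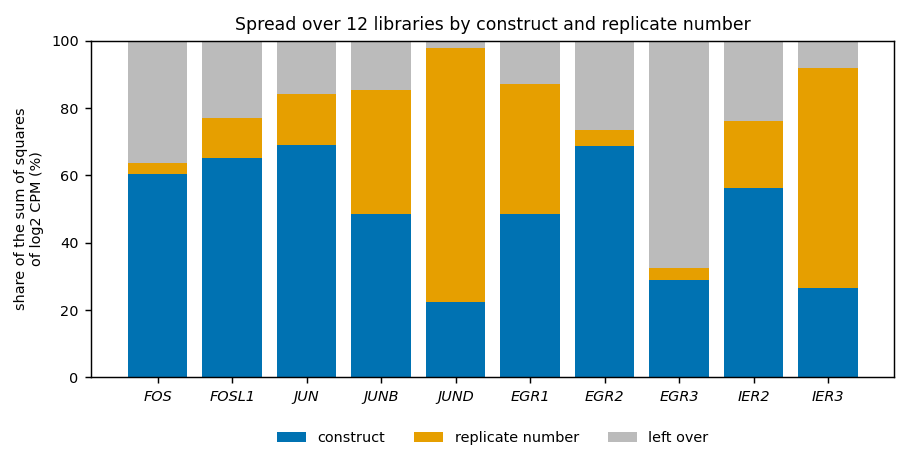
Share of the sum of squares of log2 CPM over 12 libraries (percent, stacked to 100) taken by construct, by replicate number and left over, for the 10 transcripts. Replicate number takes the largest share for *JUND* (75.6%) and *IER3* (65.4%), what is left over takes the largest share for *EGR3* (67.4%), and construct takes the largest share for the other 7.

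After the mean of each replicate number was removed, the 28 pairs among the 8 members other than *EGR2* and *EGR3* had Pearson correlations of 0.55 to 0.97 over the 12 libraries. *EGR2* had correlations of 0.05 to 0.64 with the other members. Those of *EGR3* ran from 0.48 with *EGR2* and 0.51 with *IER3* to 0.79 with *FOSL1*, so *EGR3* was not clearly apart from the rest. The points share libraries and constructs, and no correlation over all genes was set beside them, so these values are descriptions. Before the replicate means were removed, the correlation of *JUND* and *EGR1* was -0.16, and after it was 0.83.

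Outside the list, the genes whose log2 CPM followed a member most closely over the 12 libraries were named for the members called against control. They are the highest correlations among all genes tested, and here the replicate means were not removed. The values therefore include differences between replicate numbers, by which 52.8% of all genes differed. Replicate number took 75.6% of the sum of squares for *JUND* and 65.4% for *IER3*. For *JUN* they were *DUSP1*, a MAP kinase phosphatase and itself an immediate early gene (r = 0.97), *GADD45B*, a stress-response gene (r = 0.96), and *ZNF367* (r = 0.96). For *IER3* they were *TCF20* (r = 0.98), *REXO1* (r = 0.97) and *NFKBIA*, the inhibitor of NF-kappaB (r = 0.97). For *JUND* they were *MSL2*, *SIX4* and *IRF2BP2* (r = 0.97 each). *FOSL1* was most like *ORC6*, an origin recognition subunit (r = 0.95), *VPS37C* (r = 0.94) and *CDK5R1* (r = 0.93), and *EGR2* was most like *IRX3* (r = 0.87), *CCDC61* (r = 0.87) and *TADA1* (r = 0.86).

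Of 37 other immediate early genes listed, 34 were tested. With gag-pol 11 rose and 1 fell against control, with gag 6 rose and 0 fell, and with NC 2 rose and 4 fell, beside the 11.3%, 1.08% and 11.2% of all genes called in either direction. Without control replicate 3 the numbers were 11 higher and 0 lower with gag-pol, 11 higher and 0 lower with gag, and 0 in either direction with NC. Of all genes, 4.22%, 2.44% and 2.1% were then called in either direction. With gag-pol 3 to 12 were called higher over the fits that left out 1 library, lowest without gag-pol replicate 1 (3), control replicate 1 (5) and control replicate 2 (6). In those fits 2.49%, 4.13% and 3.81% of all genes were called higher. With gag 2 to 11 were called higher, lowest without control replicate 1 (2, beside 0.143% of all genes), and with NC 0 to 8 were called lower. Those lower with NC came to 8 when gag-pol replicate 3 was left out, 7 when control replicate 1 or gag-pol replicate 1 was, 2 when NC replicate 2 was, and 1 when control replicate 2, NC replicate 1 or NC replicate 3 was. In those fits 2.13% to 6.1% of all genes were called lower. The median log2 fold changes of the 34 genes against control were 0.23, 0.32 and -0.19, beside -0.00, 0.00 and 0.00 for all genes. Between NC and gag, 20 of the 34 were called lower with NC and 0 higher, beside 8.12% and 8.76% of all genes. Of the 34 log2 fold changes 32 were negative, and the median was -0.46 beside -0.01 for all genes. The count called lower was 11 without gag replicate 1 and 10 without NC replicate 1, beside 2.49% and 3.48% of all genes called lower. It was 15 without gag replicate 2 or gag replicate 3, beside 4.97% and 5.15%. It was 14 without NC replicate 3, beside 5.67%, and 17 to 24 without any other library, beside 6.13% to 9.53%. Between NC and gag-pol, 2 were called lower (*KLF6* and *TRIB1*), beside 0.0873% of all genes, and 33 of 34 were negative. The count was 12 without gag-pol replicate 3, beside 1.6% of all genes, and 4 without control replicate 3, beside 0.361%. It was 3 without control replicate 1 or NC replicate 2, beside 0.302% and 0.222%. It was 1 without gag replicate 1 or gag-pol replicate 2, and 0 when control replicate 2, gag-pol replicate 1, gag replicate 2 or 3 or NC replicate 1 was left out.

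*TRIB1*, a pseudokinase that acts on transcription factor turnover, rose against control with all 3 PEG10 constructs. The rise was 0.87 for gag-pol (log2, edgeR adjusted p = 1.1e-05), 0.71 for gag (edgeR adjusted p = 0.00028) and 0.39 for NC (edgeR adjusted p = 0.0133). *KLF6*, a zinc finger factor, was at 1485, 1558 and 1822 normalized counts in control, 3231, 2626 and 2563 with gag-pol, 2517, 2399 and 2959 with gag and 1529, 1982 and 2031 with NC. It rose by 0.69 with gag and by 0.80 with gag-pol (edgeR adjusted p = 0.00378 and 0.0004), while its log2 fold change with NC was 0.19. *CSRNP1* rose by 0.59 with gag-pol and by 0.76 with gag (edgeR adjusted p = 0.0181 and 0.0195), and *BTG2*, an antiproliferative gene, by 0.31 and 0.46 (edgeR adjusted p = 0.0172 and 0.00493). Without gag replicate 2 the rises with gag were 0.77 for *TRIB1*, 0.75 for *KLF6* and 0.49 for *BTG2* (edgeR adjusted p = 0.00098, 0.00889 and 0.0205), while *CSRNP1*, at a log2 fold change of 0.79, missed the threshold (edgeR adjusted p = 0.0611). *KLF10* rose by 0.42 with gag-pol and by 0.28 with NC (edgeR adjusted p = 0.00397 and 0.0382). Between NC and gag, the lowest of the list were *GADD45B* at a log2 fold change of -1.47 and *ARC*, a neuronal activity gene, at -1.41 (edgeR adjusted p = 0.0417 and 0.00723), which were chosen after their values were seen. Without gag replicate 2 these were -1.53 and -1.30 (edgeR adjusted p = 0.108 and 0.0255).

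Of 15 other AP-1 and related leucine zipper genes, 14 were tested, and 3 of the 15 (*FOSB*, *ATF3* and *MAFF*) are also in the list of other immediate early genes. With gag-pol *FOSL2*, the relative of *FOSL1*, rose by 0.36 (edgeR adjusted p = 0.0198) and *MAFG* fell by 0.31 (edgeR adjusted p = 0.0146). With gag 1 gene of the list rose and 0 fell. It was *ATF3*, a stress-induced factor that pairs with JUN, which was at 4579, 3445 and 4764 normalized counts in control, 5658, 5024 and 4684 with gag-pol, 11404, 7475 and 7369 with gag and 4832, 4758 and 4194 with NC. All gag libraries were above all others, and *ATF3* rose with gag by 1.02 against control (log2, standard error 0.12, edgeR adjusted p = 0.00077), and by 1.08 without gag replicate 2 (edgeR adjusted p = 0.00203). With NC, *JDP2*, which can repress AP-1, rose by 0.55 (edgeR adjusted p = 0.0228) and *MAFG* fell by 0.55 (edgeR adjusted p = 0.00056). These were 2 of 14 genes with gag-pol and 2 of 14 with NC, beside 11.3% and 11.2% of all genes. The rise with gag-pol was not called without control replicate 1 or 2 or gag-pol replicate 1 or 2, the fall with gag-pol not without control replicate 2 or 3 or gag-pol replicate 2 or 3, and the rise with NC not without control replicate 2 or 3 or NC replicate 2 or 3. Without control replicate 3, 3 genes of the list were called higher with gag-pol and 3 with gag, beside 2.14% and 1.41% of all genes. Between NC and gag, 4 of the 14 were called lower (*FOSL2*, *ATF3*, *ATF1* and *MAFG*) and 0 higher, beside 16.9% of all genes called in either direction, and the median was -0.29. The count was 2 without gag replicate 1 or NC replicate 1, beside 2.49% and 3.48% of all genes called lower. It was 4 without gag replicate 2, beside 4.97%, and *FOSL2* was not among these (edgeR adjusted p = 0.0858). *FOSB* was at -0.65 in that comparison (standard error 0.25, edgeR adjusted p = 0.0891).

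*EGR4* and the EGR corepressor genes *NAB1* and *NAB2* were all tested and 0 of the 3 passed in any comparison in edgeR. *EGR4* was near the floor of detection, with mean normalized counts of 6.1 to 14.9. Of 24 genes of SRF, its partners and the MAP kinases, 22 were tested, and their median log2 fold change was within 0.07 of 0 in each comparison. Against control, *MAPK10* and *MAP2K5* fell with gag-pol by 1.55 and 0.45 (edgeR adjusted p = 0.0005 and 0.0128), *MAPK7* fell with NC by 0.39 (edgeR adjusted p = 0.0406), and 0 genes of the list were called with gag. Between NC and gag, *SRF* fell by 0.30, *MAPK7* by 0.44 and *BRAF* by 0.32 (edgeR adjusted p = 0.00914, 0.0147 and 0.0415) and 0 genes of the list were called higher. These were 2, 1 and 3 of 22 genes, beside 11.3%, 11.2% and 16.9% of all genes called in either direction. Without gag replicate 2, *BRAF* missed the threshold (edgeR adjusted p = 0.0977). The count lower with NC than gag was 0 without NC replicate 1 or gag replicate 1 and 1 without gag replicate 3. The count lower with gag-pol than control was 1 without control replicate 3 or gag-pol replicate 3, and that with NC was 0 when control replicate 2 or 3, NC replicate 1 or 3 or any 1 gag library was left out.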

How the data were processed

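Poly(A) RNA from 12 cultures of HEK293 cells was sequenced. The deposited values are raw counts per gene symbol, which the authors made by mapping read pairs to GRCh38.p13 with STAR 2.7.3 and counting with featureCounts, with SAMtools 1.8 also in the submitters' processing notes. The annotation release, strand setting and treatment of multi-mapped reads are not given in the sources used here. All 12 columns were mapped to a sample.

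Counts were tested in R 4.3.3 with edgeR 4.0.16 and limma 3.58.1 by the quasi-likelihood test with robust estimation, TMM factors (0.94 to 1.06) and filterByExpr set per construct to at least 10 counts, 15 in total. One model of construct and replicate number was fitted to all 12 libraries and 17176 genes, with Benjamini-Hochberg adjustment over all of them and a threshold of 0.05. The spread beyond counting noise was 10.7% (biological coefficient of variation, a value common to all genes). Estimated for single genes, as a fraction, it was 0.07 for *JUND*, 0.33 for *FOS* and 0.35 for *EGR1*, with *JUND* the lowest and *EGR1* the highest of the 10. A normalized count is the TMM-scaled CPM brought to the mean library total, and log2 CPM used a prior count of 2. The authors modelled harvest date; dates are not given per library, so the replicate number, taken from the sample titles, stood for it. Same-numbered libraries of different constructs correlated at 0.14 to 0.54 after construct means were removed (18 pairs), against -0.50 to 0.07 for different numbers (36 pairs). Sampling noise did not account for the differences between replicates of a construct (chi-square per degree of freedom 32.1 to 107), and p-values measure the spread between these cultures only.

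The transcripts and gene lists were chosen with earlier results of these data known. Named genes were all 10 transcripts, *PEG10*, up to 6 genes of each list called against control by smallest p, and the 3 genes most correlated with each transcript called against control. Marker genes, *EGR4*, *NAB1* and *NAB2* were named as checks, and *SRF*, *BRAF*, *ATF1*, *FOSB* and *ARC* after their values were seen. Positions are from GENCODE release 44 and promoter windows from RefSeq. Alternatives were DESeq2 1.42.0, upper-quartile and RLE factors, the table without *PEG10*, no filter, a stricter filter (10 counts in every library), a model without replicate number, non-robust estimation, thinned counts, only the 6 libraries compared, and each library or replicate number left out. Alternatives for single transcripts between NC and gag, for counts over all genes and for the lists were chosen after seeing the data. The edgeR fit over all genes was tested on simulated data, and the DESeq2 fit was not. Figures were drawn with matplotlib 3.10.9 in Python 3.11.15, with pandas 2.3.3. A marker gene of the HEK293 list is not reported here.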

Additional observations from a re-analysis of the deposited data

How the results depend on the processing

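Over the 10 alternatives other than leaving out a library or replicate number, 369 alternative values of single transcripts kept direction and side of the threshold, 14 gained and 17 lost a call, and 0 reversed. With no replicate block, edgeR called 0 of the 10 transcripts in every comparison between constructs and 2 genes or fewer of the whole table in each pairwise one, so all calls rest on the replicate number being in the model. Under the other alternatives members called reached 3 for gag-pol and for gag against control, 8 for NC against gag and 8 among constructs, and moved by over 1.5 times as follows. For gag-pol against control, 1 was called in only the 6 libraries compared, beside 6.84% of all genes. For NC against control, 0 were called with RLE factors, 2 with no robust estimation and 3 in only the 6 libraries compared, the last beside 12.8%. For gag-pol against gag, 1 was called with DESeq2, upper-quartile factors, no filter, 10 counts in every library or thinned counts. There, 8 were called in only the 6 libraries compared, beside 15.9%. For NC against gag-pol, 1 was called with DESeq2, no filter or no robust estimation, and 2 in only the 6 libraries compared, the last beside 0.269%. In only the 6 libraries compared, gag against control called 3 members beside 2.07% of all genes, and NC against gag called 8 beside 12.9%. Over the whole table, gag against control called 186 genes, 434 with DESeq2, 373 with no filter and 344 in only the 6 libraries compared, and NC against gag-pol called 15, 213, 129 and 44. NC against gag-pol called 8 with upper-quartile factors, 9 with 10 counts in every library and 25 with no robust estimation. In only the 6 libraries compared, gag-pol against control called 1131 genes in place of 1942 and gag-pol against gag 2628 in place of 1109.

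With 1 library or replicate number left out, members called ranged from 0 to 5 for gag-pol against control, 0 to 7 for gag against control, 0 to 3 for NC against control, 0 to 6 for gag-pol against gag, 3 to 8 for NC against gag, 0 to 5 for NC against gag-pol, 3 to 9 among constructs and 2 to 6 among replicate numbers. In the same order, the genes called over the whole table ranged from 422 to 2445, 22 to 731, 367 to 2369, 12 to 1849, 342 to 3556 and 0 to 533. They ranged from 636 to 3590 among constructs and 3674 to 9371 among replicate numbers. In these fits 28 values of single transcripts reversed, all in differences that had not passed the test. The log2 fold changes concerned ranged, against control with gag-pol, from -0.20 to 0.97 for *FOS*, -0.072 to 0.56 for *JUNB*, -0.078 to 0.37 for *EGR3*, -0.18 to 0.19 for *IER2* and -0.43 to 0.21 for *IER3*. With gag *EGR2* ranged from -0.13 to 0.20. With NC *JUN* ranged from -0.16 to 0.22, *JUND* from -0.013 to 0.073 and *EGR3* from -0.25 to 0.13, and between NC and gag *EGR2* ranged from -0.024 to 0.24.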
